A study of Rattus norvegicus and Mus musculus with 61 samples.

Results

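The Gadd45 family and its companions Cdkn1a, Mdm2 and Trp53 are stress-response genes, and they were followed here in mouse and rat cortex after brain injury. Members were the probe sets annotated with 1 of these 6 gene symbols alone. There were 17 such probe sets of 21287 on the arrays, 7 in mouse and 10 in rat. Of these, 16 passed the filter on dim signals, all 7 in mouse and 9 of the 10 in rat. Mouse had Gadd45a, Gadd45b, Gadd45g, Cdkn1a and Mdm2, and rat had Gadd45a, Cdkn1a and Mdm2. Trp53 was not analysed here, and neither were Gadd45b and Gadd45g in rat.

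The mouse groups were cortex taken 4, 8, 24 or 72 h after controlled cortical impact (3 arrays per time), cortex taken at the same times after sham surgery (2 arrays per time) and naive cortex (2 arrays). Impact was delivered at 6 m/s to a depth of 1.5 mm in male C57BL/6 mice of 20 to 25 g under isoflurane, and each array held 4 mm disks of parieto-occipital cortex from 3 animals. The rat groups were cortex taken 30 min, 4, 8, 24 or 72 h or 21 d after lateral fluid percussion at 2.5 atm (5 arrays at 30 min, 3 at each other time), sham surgery at the same times (4 arrays at 30 min and at 4 h, 2 at each other time) and naive cortex (3 arrays). Rats were male Sprague-Dawley of 400 ± 25 g under pentobarbital, and each array held a 7 mm disk from 1 animal. No animal carried an engineered allele in the labels. Signals below are the deposited intensities on a linear scale, on which the trimmed mean of every array was close to 800 (800.3 to 800.5 in mouse, 800.6 to 801.2 in rat). The number of arrays limits the precision of every value.

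Gadd45a, Gadd45b and Gadd45g encode small acidic proteins that bind signalling partners, among them the stress kinase MEKK4, and components of the cell cycle machinery, and they take part in DNA repair and active DNA demethylation. Cdkn1a encodes p21, which inhibits cyclin-dependent kinases and binds PCNA. Gadd45a, Cdkn1a and Mdm2 are classical targets of p53, the protein encoded by Trp53, and MDM2 in turn marks p53 for degradation. In neurons, Gadd45b is known as an activity-induced gene.

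The proximal promoters of the 3 Gadd45 paralogues are shown because their transcripts moved together in the mouse data described next. They are rat sequences from RefSeq (GRCr8), the only promoter table used here, and each covers the 250 bases before the annotated start, read 5′ to 3′ on the gene's strand. Gadd45a lies at chr4:97486800-97487049, Gadd45b at chr7:9430719-9430968 and Gadd45g at chr17:13530352-13530601, all on the minus strand. Capitals mark 2 motifs searched on both strands, the octamer ATTTGCAT and the CCAAT box.
Gadd45a: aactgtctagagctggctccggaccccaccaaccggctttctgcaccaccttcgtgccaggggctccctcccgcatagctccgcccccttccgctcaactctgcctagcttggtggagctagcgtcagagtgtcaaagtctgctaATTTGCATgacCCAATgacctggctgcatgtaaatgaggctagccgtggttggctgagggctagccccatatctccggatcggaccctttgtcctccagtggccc
Gadd45b: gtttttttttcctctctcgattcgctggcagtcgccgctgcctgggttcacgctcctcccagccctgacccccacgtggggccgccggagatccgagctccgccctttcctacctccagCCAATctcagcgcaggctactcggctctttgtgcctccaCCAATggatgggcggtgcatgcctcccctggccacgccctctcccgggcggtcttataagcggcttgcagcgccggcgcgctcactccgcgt
Gadd45g: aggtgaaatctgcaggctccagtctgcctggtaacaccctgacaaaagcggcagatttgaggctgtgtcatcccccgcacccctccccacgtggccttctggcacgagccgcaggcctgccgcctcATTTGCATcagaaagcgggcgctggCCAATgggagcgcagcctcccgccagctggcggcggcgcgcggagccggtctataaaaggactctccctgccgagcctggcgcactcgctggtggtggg
Gadd45a and Gadd45g each held the octamer, starting 105 and 124 bases before the start, and 1.56% of 33465 rat windows of this length held one. Each of the 3 held at least 1 CCAAT box on the gene's own strand, with 2 in Gadd45b, and 34.0% of all windows held one on either strand. The E-box CACGTG was found in Gadd45b and Gadd45g (5.59% of all windows), and the TATA box TATAAA in Gadd45g (12.9%). The AP-1 motif TGANTCA (6.34% of all windows) and the CRE TGACGTCA (1.59%) were in none of these 3 windows. None of the 6 motifs was found in the Cdkn1a window at chr20:7150682-7150931 on the plus strand, and the Mdm2 window at chr7:55200792-55201041 on the minus strand held only a CCAAT box, on the opposite strand. No motif overlapped another. Motifs are descriptions of these letters and were tied to no measurement here.

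Some arrays stood apart. The mouse arrays correlated well with each other (median correlation of each array with the rest, at least 0.941). In rat, 4 arrays had median correlations of 0.61 to 0.83, against at least 0.864 in the others. These were sham 4 h replicates 3 and 4, injury 30 min replicate 5 and sham 30 min replicate 3. Both mouse sham 4 h arrays carried transcripts of pituitary hormones: the summed signal of 6 pituitary markers was 18500 and 20730, against 1687 to 2650 in every other mouse array, and 4 of the 5 markers tested were called higher and 1 lower against the other sham groups. Neuronal markers were present in every array, with summed signals of 35601 to 60439 in mouse and 6457 to 30242 in rat, although the neuronal gene Slc17a7 sat at the floor in every array of 7 of the 13 rat groups.

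In injured mouse cortex, all 3 Gadd45 genes and Cdkn1a were higher than in time-matched sham cortex, each at 2 or more of the 4 times, and Mdm2 was called at none. A gene counted as called where its limma p, adjusted by Benjamini-Hochberg over 6352 genes, was under 0.05. At 4 h only Gadd45g was called, 1 of 5 members (0.677% of all genes were called higher). At 8 h 4 of 5 members were called higher (4.91% of all genes), at 24 h 4 of 5 (6.19%) and at 72 h 3 of 5 (9.86%). No member was called lower at any time, against 0.189%, 3.27%, 4.50% and 5.68% of all genes at 4, 8, 24 and 72 h. Below, differences are log2 injury minus sham ± SE from limma, with the adjusted p.

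**Figure D1:**
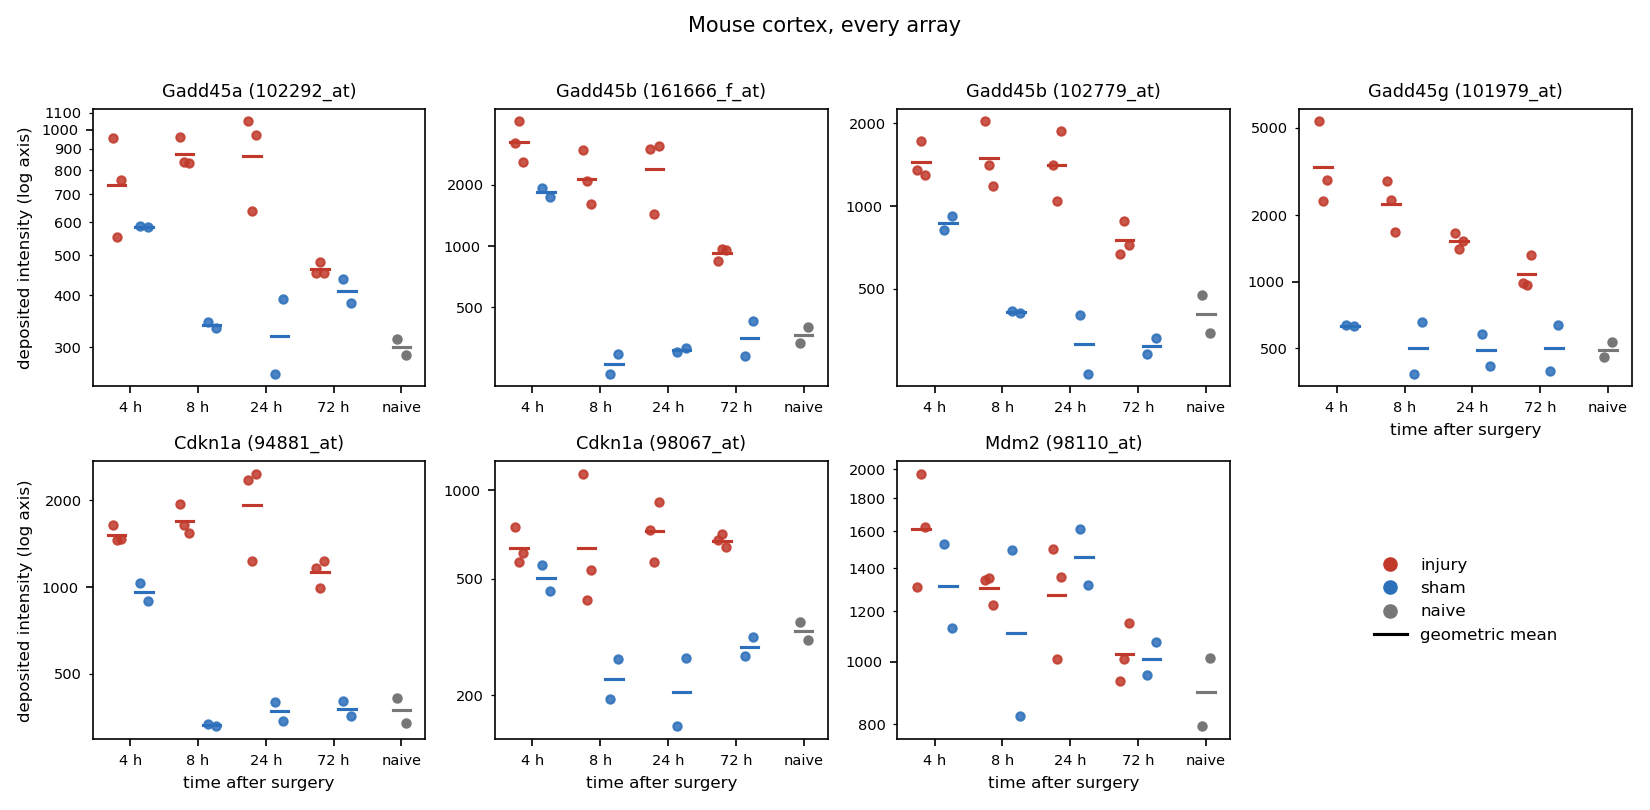
Deposited intensity (log axis) of the 7 mouse member probe sets in every array, by time after surgery. Red points are injury arrays, blue points sham arrays and grey points naive arrays, and bars are geometric means. Both sham 4 h arrays lie above the other sham and naive arrays for Gadd45a, Gadd45b and Cdkn1a, and the injury and sham arrays of Mdm2 overlap at every time.

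Gadd45b is given first. Its probe set 161666_f_at read 3235, 4111 and 2605 in injured cortex at 4 h, against 1940 and 1744 in sham. At 8 h it read 2964, 2081 and 1615 after injury, against 235 and 293 in sham. At 24 h the injured arrays held 3016, 1441 and 3127, against 300 and 316 in sham. Every injured array was above both time-matched sham arrays, and both 4 h sham arrays were above all later sham arrays. At 72 h injured cortex read 844, 974 and 962, against 289 and 427 in sham, and naive cortex read 333 and 399. The log2 difference was 0.83 ± 0.29 at 4 h (adjusted p = 0.303), 3.03 ± 0.29 at 8 h (adjusted p = 1.52e-06), 2.96 ± 0.29 at 24 h (adjusted p = 1.67e-06) and 1.40 ± 0.29 at 72 h (adjusted p = 0.00256). These correspond to 8.19-fold at 8 h, 7.76-fold at 24 h and 2.63-fold at 72 h. With all uninjured arrays as 1 control group the 72 h call was lost (1.03, adjusted p = 0.134).

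The suffix of 161666_f_at marks probes that can match several related sequences, so the other Gadd45b probe set, 102779_at, is given beside it. It read 2035, 1412 and 1181 in injured cortex at 8 h, against 415 and 408 in sham. At 72 h it read 666, 881 and 719 after injury, against 290 and 331 in sham. Injured and sham arrays were apart at all 4 times. When every probe set was tested on its own, 102779_at was called at 8 h (1.87 ± 0.26, adjusted p = 0.000157), 24 h (2.17 ± 0.26, adjusted p = 2.35e-05) and 72 h (1.28 ± 0.26, adjusted p = 0.00263), and not at 4 h (0.74 ± 0.26, adjusted p = 0.328). Across the 22 mouse arrays, the 2 Gadd45b probe sets had a Pearson correlation of 0.950. In this test 6 of the 7 mouse member probe sets were called at 8 h and at 24 h (7.74% and 9.11% of all probe sets), 5 at 72 h (13.9%) and 1 at 4 h (0.767%).

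Gadd45g was the member called at all 4 times. Its signal after injury was 5335, 2334 and 2881 at 4 h, against 637 and 629 in sham. It was 2875, 2347 and 1683 after injury at 8 h, against 383 and 660 in sham. The sham values at 4 h were like those of the other sham arrays, which spanned 383 to 660, and naive cortex read 456 and 534. At 24 h injured cortex read 1657, 1402 and 1529, against 579 and 415 in sham, and at 72 h it read 991, 972 and 1320, against 396 and 640 in sham. No injured array overlapped a sham array. The log2 difference was 2.38 ± 0.31 at 4 h (adjusted p = 0.000227), 2.16 ± 0.31 at 8 h (adjusted p = 0.000135), 1.64 ± 0.31 at 24 h (adjusted p = 0.00156) and 1.11 ± 0.31 at 72 h (adjusted p = 0.0196). These are 5.21-fold, 4.47-fold, 3.11-fold and 2.15-fold. The order of the group levels was injury 4 h, 8 h, 24 h and 72 h, and only the neighbours 4 h and 8 h overlapped in their arrays.

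The 2 later Gadd45g calls rested on few arrays. At 72 h the call was lost without injury replicate 3 (0.96, adjusted p = 0.0799) and without sham replicate 1c (0.76, adjusted p = 0.168). It was also lost with the 2 sham arrays averaged (adjusted p = 0.0802) and with the title letter as a block (adjusted p = 0.0523). At 24 h it was lost without sham replicate 1d (1.40, adjusted p = 0.0504).

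Gadd45a, the family member best known as a p53 target, was called at 8 h and 24 h. Injured cortex read 954, 554 and 758 at 4 h, against 586 and 584 in sham, and the groups overlapped. At 8 h it read 960, 836 and 835 after injury, against 345 and 333 in sham, and at 24 h it read 1048, 637 and 970, against 259 and 393 in sham. The groups were apart at both of these times. At 72 h the injured arrays held 453, 482 and 452 and the sham arrays 439 and 384, a small gap, with naive cortex at 314 and 288. The log2 difference was 1.37 ± 0.23 at 8 h (2.58-fold, adjusted p = 0.000755) and 1.44 ± 0.23 at 24 h (2.71-fold, adjusted p = 0.000368). It did not pass the test at 4 h (0.33 ± 0.23, adjusted p = 0.759) or at 72 h (0.17 ± 0.23, 95% interval -0.31 to 0.66, adjusted p = 0.706).

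Cdkn1a was called at 8, 24 and 72 h. Its probe set 94881_at read 1642, 1458 and 1470 in injured cortex at 4 h, against 1029 and 891 in sham. At 8 h it read 1942, 1643 and 1540 after injury, against 334 and 327 in sham, and at 24 h 2353, 1233 and 2470, against 397 and 343 in sham. At 72 h it still read 1161, 991 and 1234 after injury, against 400 and 357 in sham. Injured arrays were above the sham arrays at all 4 times, and naive cortex, at 412 and 336, was like the sham arrays after 4 h. The log2 difference was 0.67 ± 0.22 at 4 h (adjusted p = 0.276), 2.36 ± 0.22 at 8 h (5.14-fold, adjusted p = 1.34e-06), 2.38 ± 0.22 at 24 h (5.22-fold, adjusted p = 8.61e-07) and 1.57 ± 0.22 at 72 h (2.97-fold, adjusted p = 6.61e-05). Tested on its own, the other Cdkn1a probe set, 98067_at, was also called at 8 h (1.48 ± 0.32, adjusted p = 0.00715), 24 h (1.82 ± 0.32, adjusted p = 0.00118) and 72 h (1.20 ± 0.32, adjusted p = 0.0181), and had a Pearson correlation of 0.885 with 94881_at over 22 arrays.

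Mdm2, the ubiquitin ligase that limits p53, did not pass the test against sham at any time in mouse. It read 1308, 1964 and 1624 in injured cortex at 4 h, against 1526 and 1129 in sham, and 1500, 1012 and 1357 after injury at 24 h, against 1613 and 1320 in sham. Injured and sham arrays overlapped at all 4 times. Its log2 differences were 0.29 ± 0.23 at 4 h (adjusted p = 0.794), 0.24 ± 0.23 at 8 h (adjusted p = 0.630), -0.20 ± 0.23 at 24 h (adjusted p = 0.667) and 0.02 ± 0.23 at 72 h (adjusted p = 0.971). The 95% intervals ran from -0.19 to 0.78 at 4 h, -0.25 to 0.72 at 8 h, -0.68 to 0.29 at 24 h and -0.46 to 0.51 at 72 h.

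**Figure D2:**
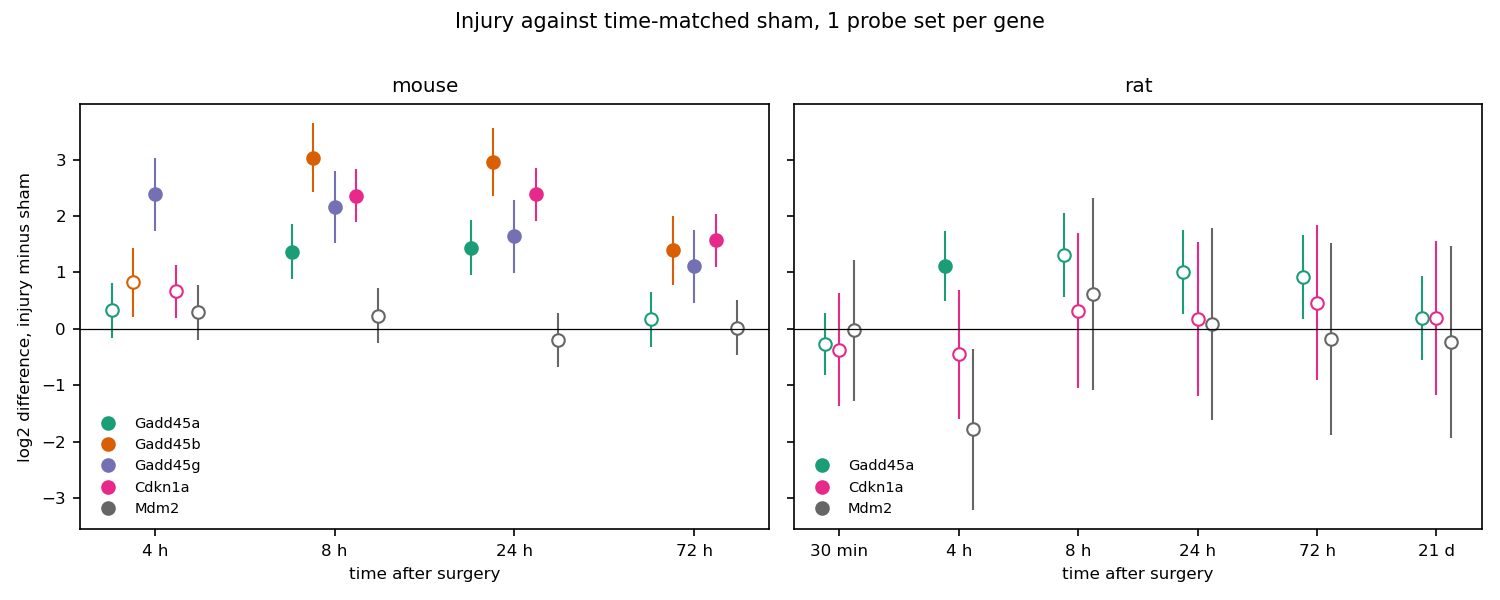
Log2 difference, injury minus time-matched sham, of each member with 1 probe set per gene, in mouse (left) and rat (right). Bars are 95% intervals from limma, filled points are called at an adjusted p below 0.05 and open points are not. In mouse the 3 Gadd45 genes and Cdkn1a are filled at 8 h and 24 h, and in rat only Gadd45a at 4 h is filled.

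The sham 4 h arrays bear on every mouse comparison at 4 h. For Gadd45b they read 1940 and 1744, against 235 to 427 in the other sham arrays. For Cdkn1a they read 1029 and 891, against 327 to 400, and for Gadd45a 586 and 584, against 259 to 439. All of these lay above the other sham and naive arrays, which was not so for Gadd45g or for Mdm2. Against the other sham groups, sham 4 h was called higher for 2 of 5 members, Gadd45b (2.59 ± 0.26, adjusted p = 1.45e-05) and Cdkn1a (1.42 ± 0.20, adjusted p = 0.000644), with 0.457% of all genes called higher. Gadd45a did not pass the test (0.72 ± 0.21, adjusted p = 0.206). Against naive cortex the same 2 members were called higher (0.315% of all genes), Gadd45b by 2.33 ± 0.32 (adjusted p = 0.000603) and Cdkn1a by 1.36 ± 0.25 (adjusted p = 0.00868). The mouse injury 4 h titles all carried the letter a and the sham 4 h titles b or c, with no meaning given. At 4 h in mouse, what this letter stands for and injury cannot be told apart.

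The second probe sets gave smaller differences in the sham 4 h arrays. Gadd45b 102779_at read 818 and 917 there, against 245 to 415 in the other sham arrays, and was called against them (1.34 ± 0.24, adjusted p = 0.00945). Cdkn1a 98067_at read 557 and 455, against 157 to 317, and was not called (1.07 ± 0.29, adjusted p = 0.173). Summed signals of the other marker lists in the 2 sham 4 h arrays were 6810 and 7252 for reactive astrocytes (5336 to 7943 in other uninjured mouse arrays), 11367 and 11507 for microglia and macrophages (9347 to 10786) and 940 and 942 for neutrophils (675 to 891). None of these markers was called in limma between sham 4 h and the other sham groups. The pituitary transcripts moved with the high Gadd45b and Cdkn1a signals, and their part in them was not tested.

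Set against naive cortex in place of sham, all 5 members were higher 4 h after injury (4.61% of all genes called higher). The log2 difference was 3.16 ± 0.29 for Gadd45b (adjusted p = 1.28e-06), 2.74 ± 0.31 for Gadd45g (adjusted p = 1.24e-05), 2.03 ± 0.22 for Cdkn1a (adjusted p = 1.07e-05) and 1.29 ± 0.23 for Gadd45a (adjusted p = 0.00150). Of the comparisons tested in mouse, Mdm2 was called in this one alone (0.84 ± 0.23, adjusted p = 0.0320). Against naive cortex 4 members were called higher at 8 h (3.89% of all genes), 4 at 24 h (6.69%) and 3 at 72 h (8.78%). These comparisons share the 2 naive arrays. The mean of all mouse sham groups did not differ from naive cortex for any of the 5 members in limma (0.110% of all genes called), with 1 member at an unadjusted p below 0.05.

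The difference between the injury effects of consecutive times was tested directly. Between 4 h and 8 h, 2 of 5 members had a larger effect at 8 h (0.441% of all genes), Gadd45b by 2.21 ± 0.41 and Cdkn1a by 1.69 ± 0.32 (adjusted p = 0.0147 each). Both calls were lost without sham 4 h replicate 1b (adjusted p = 0.0904 for Gadd45b and 0.0964 for Cdkn1a), without sham 4 h replicate 1c (0.0735 and 0.0617) and without sham 8 h replicate 1b (0.0916 and 0.0729). With all uninjured arrays as 1 control group the Gadd45b difference turned to -0.60 (adjusted p = 0.735) and that of Cdkn1a was 0.16 (adjusted p = 0.897). In injured cortex itself, Gadd45b read 2605 to 4111 at 4 h and 1615 to 2964 at 8 h, and Cdkn1a 1458 to 1642 and 1540 to 1942.

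No member was called between 8 h and 24 h in limma (0.0472% of all genes), and none had an unadjusted p below 0.05. Between 24 h and 72 h none was called either (0.283% of all genes), and 3 members had an unadjusted p below 0.05. In that contrast 3 members were called without injury 24 h replicate 2 and 1 without sham 72 h replicate 1c.

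The 4 responsive members varied together across the 22 mouse arrays, as a description of arrays that share injury groups. Pearson's r was 0.942 between Cdkn1a and Gadd45b, 0.908 between Cdkn1a and Gadd45a, 0.889 between Gadd45a and Gadd45b and 0.804 to 0.853 between Gadd45g and the others. Mdm2 had r of 0.383 to 0.507 with them. The genes most like each member were taken over all 6352 genes. Those most like Cdkn1a were the transcription factor gene Cebpd (r = 0.960), Wdr92 (0.959), the adrenomedullin gene Adm (0.956) and the monocyte chemokines Ccl7 (0.955) and Ccl2 (0.951). Those most like Gadd45b were Cdkn1a, the transcription factor gene Klf10 (0.927) and the activity and stress genes Fos (0.926), Atf3 (0.919) and Fosb (0.917).

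Of the other Gadd45 genes, Gadd45a shared Wdr92, Ccl7 and Cdkn1a with the neighbours above, and Cd14 with Gadd45g. Gadd45a was most like Wdr92 (0.931), the neutrophil gene S100a8 (0.915), Cdkn1a, Ccl7 (0.900) and the endotoxin receptor gene Cd14 (0.899). Gadd45g was most like Cebpb (0.940), Cd14 (0.939), the anchoring protein gene Akap12 (0.928), S100a9 (0.918) and the urokinase receptor gene Plaur (0.916).

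Markers of several other cell types moved with injury in the same mouse arrays. Summed microglia and macrophage markers were 13585 to 50642 in injured arrays, against 9347 to 11507 in sham and 10720 to 10786 in naive arrays. Of these 10 markers, 2 were called higher at 4 h, 5 at 8 h, 8 at 24 h and 10 at 72 h, and Lgals3 sat at the floor in every uninjured array. Reactive astrocyte markers summed to 7877 to 44263 in injured arrays, against 5499 to 7399 in sham and 5336 to 7943 in naive arrays, with 0, 4, 6 and 7 of 8 called higher at 4, 8, 24 and 72 h and 1 lower at 8 h. Neutrophil markers summed to 979 to 2941 in injured arrays, against 675 to 942 in sham and 710 to 819 in naive arrays, and 1 or 2 of the 3 tested were called higher at each time. Endothelial markers summed to 6313 to 7223 in injured arrays at 72 h, against 3147 to 4052 in sham, and to 3994 to 4736 against 3086 to 3131 at 24 h, with 0, 2, 2 and 3 of 7 called higher at 4, 8, 24 and 72 h. Oligodendrocyte markers summed to 18666 to 21099 in injured arrays at 8 h, against 13302 to 15073 in sham, and to 19188 to 24045 against 12760 to 15180 at 24 h. Of 4 such markers tested, 0, 2, 2 and 2 were called higher at the 4 times, and naive arrays summed to 16543 to 19382. None of 7 neuronal markers was called at any time. In bulk tissue, more cells of a type and more RNA per cell cannot be told apart, and the part of these cells in the Gadd45 and Cdkn1a signals was not tested.

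In rat cortex, of 3 members, 1 was called higher at 4 h, Gadd45a (2.93% of all genes called higher), and none at the other times in limma (0.0245% of all genes called in either direction at 30 min, 0.709% at 8 h, 0.269% at 24 h, 2.76% at 72 h and 0% at 21 d). At 8, 24 and 72 h 1 member had an unadjusted p below 0.05 at each time, Gadd45a. The rat table held 4089 genes. Every rat injury 4 h title carried the letter b and every rat sham 4 h title the letter a, with no meaning given. At 4 h in rat, what this letter stands for and injury cannot be told apart.

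**Figure D3:**
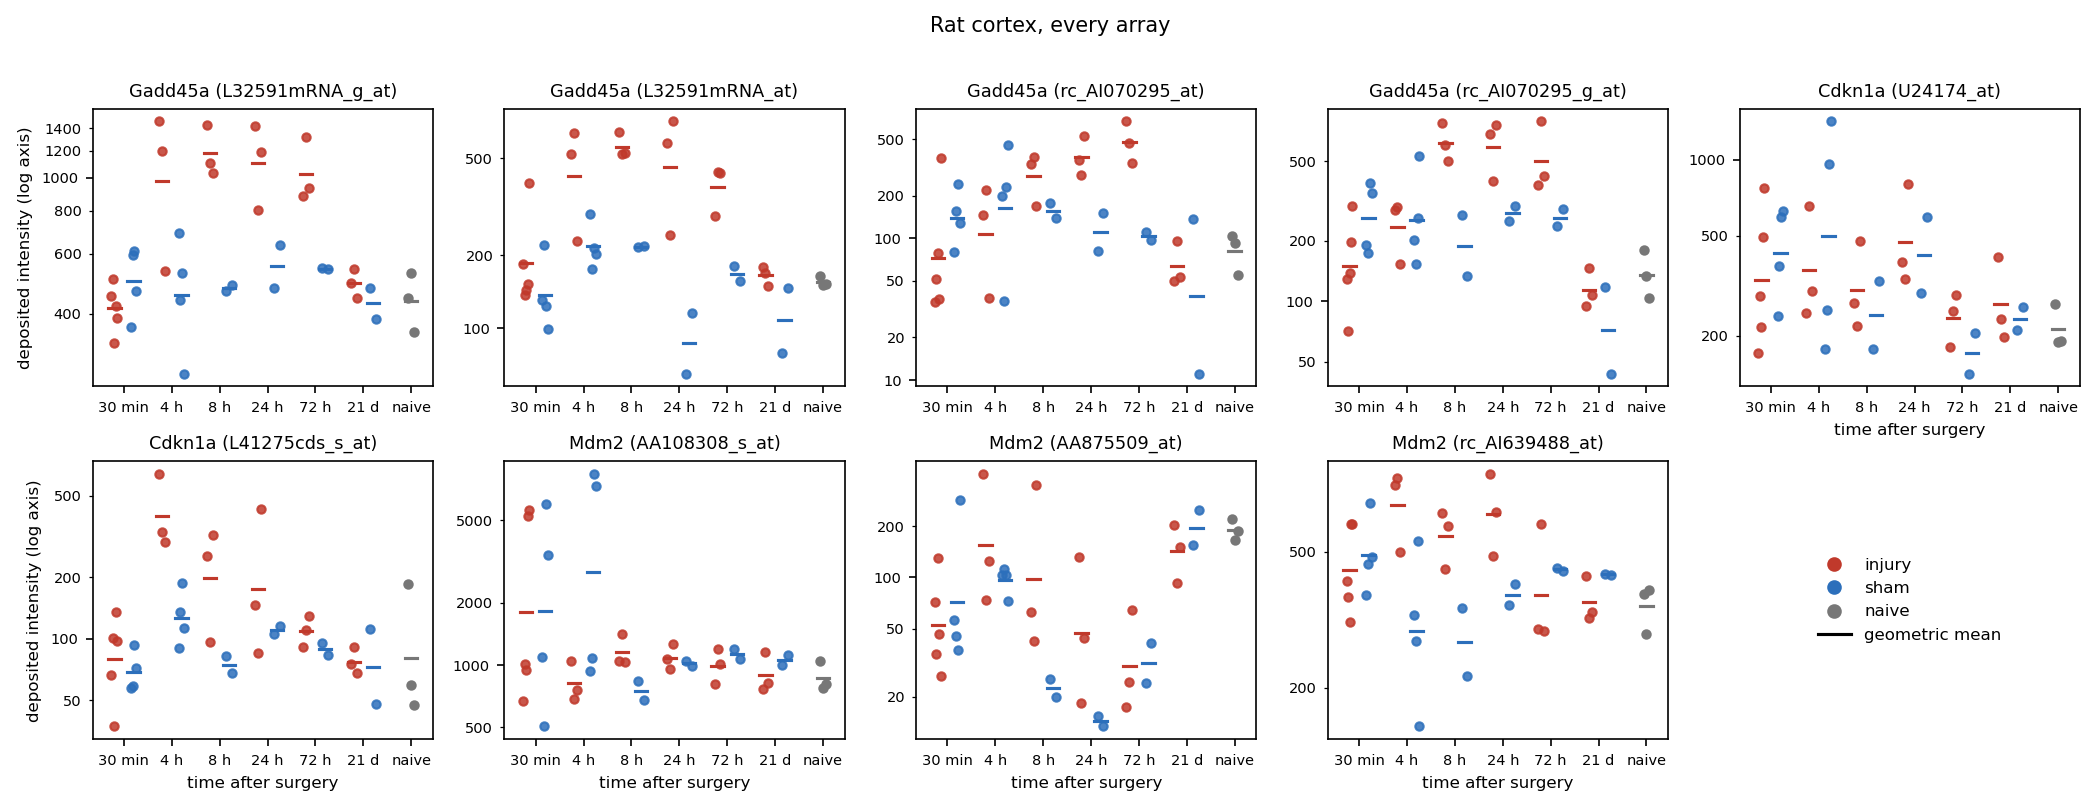
Deposited intensity (log axis) of the 9 rat member probe sets that passed the filter, in every array, by time after surgery. Red points are injury arrays, blue points sham arrays and grey points naive arrays, and bars are geometric means. Gadd45a L32591mRNA_g_at lies between 806 and 1433 in every injury array at 8, 24 and 72 h and between 468 and 635 in the sham arrays of those times, and Mdm2 AA108308_s_at is between 3384 and 8359 in 6 arrays of the 30 min and 4 h groups.

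Rat Gadd45a has 4 probe sets, of which L32591mRNA_g_at had the highest mean. At 30 min its lowest, median and highest signals were 329, 421 and 505 in 5 injured arrays, against 365, 531 and 611 in 4 sham arrays, and the groups overlapped. At 4 h it read 1464, 1199 and 533 after injury, against 688, 438, 525 and 267 in sham. The third injured array lay within the sham range. At 8 h it read 1433, 1106 and 1035 after injury, against 468 and 486 in sham, and at 24 h 1420, 806 and 1190, against 477 and 635. At 72 h it read 882, 1316 and 935 after injury, against 543 and 540 in sham. Injured arrays were above sham arrays at these 3 times with no overlap. At 21 d it was 491, 540 and 446 after injury, against 477 and 386 in sham, with naive cortex at 444, 526 and 353.

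The log2 difference of rat Gadd45a was -0.27 ± 0.27 at 30 min (adjusted p = 1), 1.11 ± 0.31 at 4 h (2.16-fold, adjusted p = 0.0387) and 1.31 ± 0.37 at 8 h (adjusted p = 0.104). It was 1.01 ± 0.37 at 24 h (adjusted p = 0.490), 0.93 ± 0.37 at 72 h (adjusted p = 0.201) and 0.19 ± 0.37 at 21 d (adjusted p = 1). The 4 h call is the one with the overlapping arrays. It was lost without injury 4 h replicate 1 (0.82, adjusted p = 0.154) or 2 (0.96, adjusted p = 0.17), and without sham 4 h replicate 3 (1.18, adjusted p = 0.0720) or 4 (0.85, adjusted p = 0.220). With the probe sets of the gene averaged, the 4 h difference was 0.33 (adjusted p = 0.544). Without the 4 arrays that stand apart, it was 0.83 (adjusted p = 0.313) at 4 h, and the 8 h difference of 1.31 was then called (adjusted p = 0.0279). Against naive cortex, Gadd45a was called higher at 8 h (1.44 ± 0.33, adjusted p = 0.0104, 1.27% of all genes called higher), 24 h (1.35 ± 0.33, adjusted p = 0.00641, 9.90%) and 72 h (1.24 ± 0.33, adjusted p = 0.0176, 3.37%), and not at 4 h (1.17 ± 0.33, adjusted p = 0.112, 0.709%). The 5 rat arrays of 24 h, injury and sham, had the highest median signals of the rat arrays (398 to 409), with median correlations of 0.865 to 0.872 in injured and 0.864 to 0.876 in sham arrays. Their titles also carry a letter f after the time, with no meaning given in the titles. The part of these array differences in the 24 h call against naive cortex was not tested.

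The other rat Gadd45a probe sets were tested on their own. L32591mRNA_at read 580, 241 and 710 in injured cortex at 24 h, against 65 and 116 in sham, and was called there (2.41 ± 0.48, adjusted p = 0.00966). At 8 h it read 640, 520 and 525 after injury, against 215 and 217 in sham (1.37 ± 0.48, adjusted p = 0.297). Injured arrays lay above the sham arrays at both times. At 4 h rc_AI070295_at read 147, 220 and 38 after injury, against 198, 36, 229 and 452 in sham (-0.62 ± 0.72, adjusted p = 0.565), which overlap. At 24 h it read 358, 279 and 528 after injury, against 81 and 151 in sham (1.76 ± 0.86, adjusted p = 1), and at 72 h 668, 472 and 342, against 112 and 97 (2.20 ± 0.86, adjusted p = 0.191), with no overlap at either time. The fourth, rc_AI070295_g_at, overlapped at 4 h (-0.12 ± 0.46, adjusted p = 0.877) and was apart, with injury above sham, at 8 h (1.70 ± 0.55, adjusted p = 0.236), 24 h (1.10 ± 0.55, adjusted p = 1) and 72 h (0.94 ± 0.55, adjusted p = 0.454). Over the 39 rat arrays the 4 probe sets had pairwise Pearson correlations of 0.581 to 0.828. Of 9 rat member probe sets, 2 were called at 4 h (5.29% of all probe sets), 1 at 24 h (0.335%) and none at 30 min (0.0140%), 8 h (0.461%), 72 h (2.19%) or 21 d (0%) in limma.

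The genes most like rat Gadd45a over the 39 arrays were the protease inhibitor gene Timp1 (r = 0.895), the heme oxygenase gene Hmox1 (0.872), Mrps6 (0.832), the lipocalin gene Lcn2 (0.832) and Ifitm3 (0.832). Summed reactive astrocyte markers were 3406 to 19472 in injured rat arrays, against 3305 to 7033 in sham and 3154 to 4373 in naive arrays. Of 6 such markers tested, 1, 2, 2 and 3 were called higher at 4, 8, 24 and 72 h. Microglia and macrophage markers summed to 8912 to 39115 in injured arrays, against 7734 to 11195 in sham and 7933 to 8576 in naive arrays, with 0, 1, 1 and 4 of 6 called higher at those times. Neutrophil markers summed to 154 to 7372 in injured arrays, against 168 to 868 in sham and 253 to 317 in naive arrays. Neuronal markers summed to 6457 to 15637 in injured arrays at 72 h, against 26204 to 27103 in sham, with 1 of 5 called lower, and to 10932 to 16118 against 16746 to 19634 at 24 h, with none called in limma. Oligodendrocyte markers summed to 23544 to 32671 in injured arrays at 72 h, against 40303 to 42380 in sham, and to 20049 to 28565 against 32451 to 37756 at 24 h, but to 42073 to 46582 against 31077 to 34544 at 8 h, with none of 5 called at these times in limma. The part of these cells in the Gadd45a signal was not tested.

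Rat Cdkn1a gave different answers by probe set. U24174_at, which stands for the gene, read 246, 653 and 300 in injured cortex at 4 h, against 177, 252, 965 and 1422 in sham (-0.45 ± 0.56, adjusted p = 0.602). The 2 highest sham values belong to replicates 3 and 4, which stand apart, and without the 4 such arrays the difference was 0.79 (adjusted p = 0.672). L41275cds_s_at read 640, 332 and 299 after injury at 4 h, against 90, 136, 188 and 113 in sham, with no overlap. Its difference was 1.65 ± 0.52 and did not pass the test over all probe sets (adjusted p = 0.0527). At 8 h it read 254, 96 and 322 after injury, against 82 and 68 in sham (1.41 ± 0.62, adjusted p = 0.529). The 2 Cdkn1a probe sets had a Pearson correlation of 0.352 over 39 arrays.

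Rat Mdm2 also depended on the probe set. AA108308_s_at read 1048, 683 and 758 in injured cortex at 4 h, against 933, 1078, 8359 and 7322 in sham. At 30 min its lowest, median and highest signals were 670, 1006 and 5597 in injured arrays, against 505, 2238 and 6025 in sham arrays. Signals of 3384 to 8359 occurred in injury 30 min replicates 4 and 5, sham 30 min replicates 3 and 4 and sham 4 h replicates 3 and 4, and all other rat arrays lay between 505 and 1413. The 4 h difference was -1.78 ± 0.70 (adjusted p = 0.0982). It was called without sham 4 h replicate 1 (-2.31, adjusted p = 0.0188) or 2 (-2.24, adjusted p = 0.0236), which leaves the 2 high arrays a larger share of the sham group. Over all fits with an array left out it ran from -2.31 to -1.25, with adjusted p from 0.0188 to 0.394. Without the 4 arrays that stand apart, Mdm2 differed by -0.30 (adjusted p = 0.934).

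Tested on its own, rc_AI639488_at showed the opposite direction for Mdm2 at 4 h. It read 785, 825 and 501 in injured cortex at 4 h, against 327, 274, 539 and 154 in sham, and was called higher (1.23 ± 0.34, adjusted p = 0.0400) although the lowest injured array lay within the sham range. At 24 h it read 845, 487 and 653 after injury, against 349 and 403 in sham (0.78 ± 0.41, adjusted p = 1). At 8 h none of the 3 Mdm2 probe sets that passed the filter was called, although injured arrays lay above both sham arrays. These probe sets were read on the same arrays. The share of all rat probe sets that were apart at 8 h is not given here. AA108308_s_at then read 1033 to 1413 after injury, against 675 to 833 in sham. The 8 h ranges were 445 to 649 against 216 to 342 for rc_AI639488_at and 42 to 349 against 20 to 25 for AA875509_at. Both sham signals of AA875509_at at 8 h were under the floor of 32.3. AA875509_at was dim, with 13 to 403 over all arrays, and AA108308_i_at, which did not pass the filter, read 2.2 to 24. The 3 Mdm2 probe sets that passed had pairwise Pearson correlations of -0.087 to 0.112 over 39 arrays. No rat member was called between sham and naive cortex in limma (0.0245% of all genes called), nor between the injury effects at 4 and 24 h (0%), 24 and 72 h (0.0245%) or 72 h and 21 d (0.171%), and none of these 4 contrasts had a member at an unadjusted p below 0.05.

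Genes around these members were counted in 6 lists, without the members themselves. Counts are limma calls, with 0.866% of all mouse genes called in either direction at 4 h, 8.19% at 8 h, 10.7% at 24 h and 15.5% at 72 h as background. Of 18 other p53 target genes tested in mouse, 2 were higher and 0 lower at 4 h, 3 and 1 at 8 h, 2 and 1 at 24 h and 3 and 3 at 72 h. With an array left out, the count higher was 0 to 1 at 4 h, 0 to 3 at 8 h, 2 at 24 h and 1 to 4 at 72 h, and the count lower was 0 to 1 at 8 h, 1 to 2 at 24 h and 0 to 3 at 72 h. The list's median log2 difference at 8 h was -0.02, against -0.03 over all genes. Btg2, which slows cell growth, was higher than sham at 4 h (1.02 ± 0.19, adjusted p = 0.00781) and 8 h (0.93 ± 0.19, adjusted p = 0.00346). Its injured arrays, at 2483 to 3692 and 2500 to 3097, overlapped naive cortex at 2197 to 2584. Sham arrays of these times lay below naive cortex, at 1445 to 1545 and 1434 to 1531. Igfbp3, which binds insulin-like growth factors, was higher at 24 h (2.39 ± 0.40, adjusted p = 0.000519) and 72 h (3.10 ± 0.40, adjusted p = 2.17e-05). Sfn, which encodes 14-3-3 sigma, was higher at 24 h (1.89 ± 0.35, adjusted p = 0.00153), and the sestrin gene Sesn1 was lower (-1.12 ± 0.22, adjusted p = 0.00204).

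Among 14 p53 regulators and DNA damage kinases in mouse, none was called higher at any time in limma. The counts lower were 0 at 4 h, 1 at 8 h, 1 at 24 h and 2 at 72 h. They became 1 at 8 h, 0 at 24 h and 0 to 5 at 72 h with an array left out. Atm, the kinase that answers DNA double-strand breaks, was lower at 8 h (-1.94 ± 0.32, adjusted p = 0.000511). Trp53bp1, which binds at such breaks, was lower at 24 h (-0.71 ± 0.21, adjusted p = 0.0373) and 72 h (-0.88 ± 0.21, adjusted p = 0.00786), and the acetyltransferase gene Crebbp at 72 h (-0.80 ± 0.23, adjusted p = 0.0247).

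Of 16 stress MAP kinase genes, the pathway that GADD45 proteins can act on, 1 was higher and 1 lower at 4 h, 2 and 0 at 8 h, 2 and 1 at 24 h and 1 and 2 at 72 h in mouse. Leaving out an array gave counts higher of 0 to 1 at 4 h, 0 to 3 at 8 h, 0 to 1 at 24 h and 1 to 2 at 72 h, and counts lower of 0 at 4 h, 0 to 2 at 24 h and 0 to 2 at 72 h. The phosphatase gene Dusp1 was higher at 4 h (1.60 ± 0.28, adjusted p = 0.00482), with signals of 5457 to 7679 after injury, against 1886 to 2196 in sham. Mapkapk2, a kinase downstream of p38, was higher at 8 h (0.74 ± 0.17, adjusted p = 0.00787), 24 h (0.54 ± 0.17, adjusted p = 0.0428) and 72 h (0.81 ± 0.17, adjusted p = 0.00203). Mapk12 was higher at 8 h (0.70 ± 0.17, adjusted p = 0.0155) and Map3k1 at 24 h (1.26 ± 0.31, adjusted p = 0.0110).

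The next list holds genes of cyclins, cyclin-dependent kinases and PCNA, some of whose products p21 inhibits or binds. It also holds genes of the Cdc25 phosphatases, the Rb family and E2f1. Of 17 genes of this list tested in mouse, none was called at 4 h or 8 h in limma. At 24 h 4 were higher and 1 lower, and at 72 h 4 were higher and 0 lower. With an array left out, 0 to 2 were higher at 24 h and 3 to 4 at 72 h. Cdk1, the mitotic kinase, read 354 to 716 after injury at 72 h, against 35 to 38 in sham (3.96 ± 0.68, adjusted p = 0.000405). Ccnb2 was higher at 72 h (1.22 ± 0.20, adjusted p = 0.000326), Ccnd1 at 24 h (0.55 ± 0.16, adjusted p = 0.0318) and 72 h (0.92 ± 0.16, adjusted p = 0.000518), and Pcna at 24 h (0.70 ± 0.18, adjusted p = 0.0153). Of 4 other CDK inhibitors, Cdkn1c, which encodes p57, was lower at 8 h (-0.93 ± 0.27, adjusted p = 0.0358) and 24 h (-0.87 ± 0.27, adjusted p = 0.0420), and Cdkn2c was higher at 72 h (0.81 ± 0.20, adjusted p = 0.00984). None of the 4 was called at 4 h. Their count lower was 0 at 8 h and 0 to 1 at 24 h with an array left out, and the count higher at 72 h was 0 to 1.

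**Figure D4:**
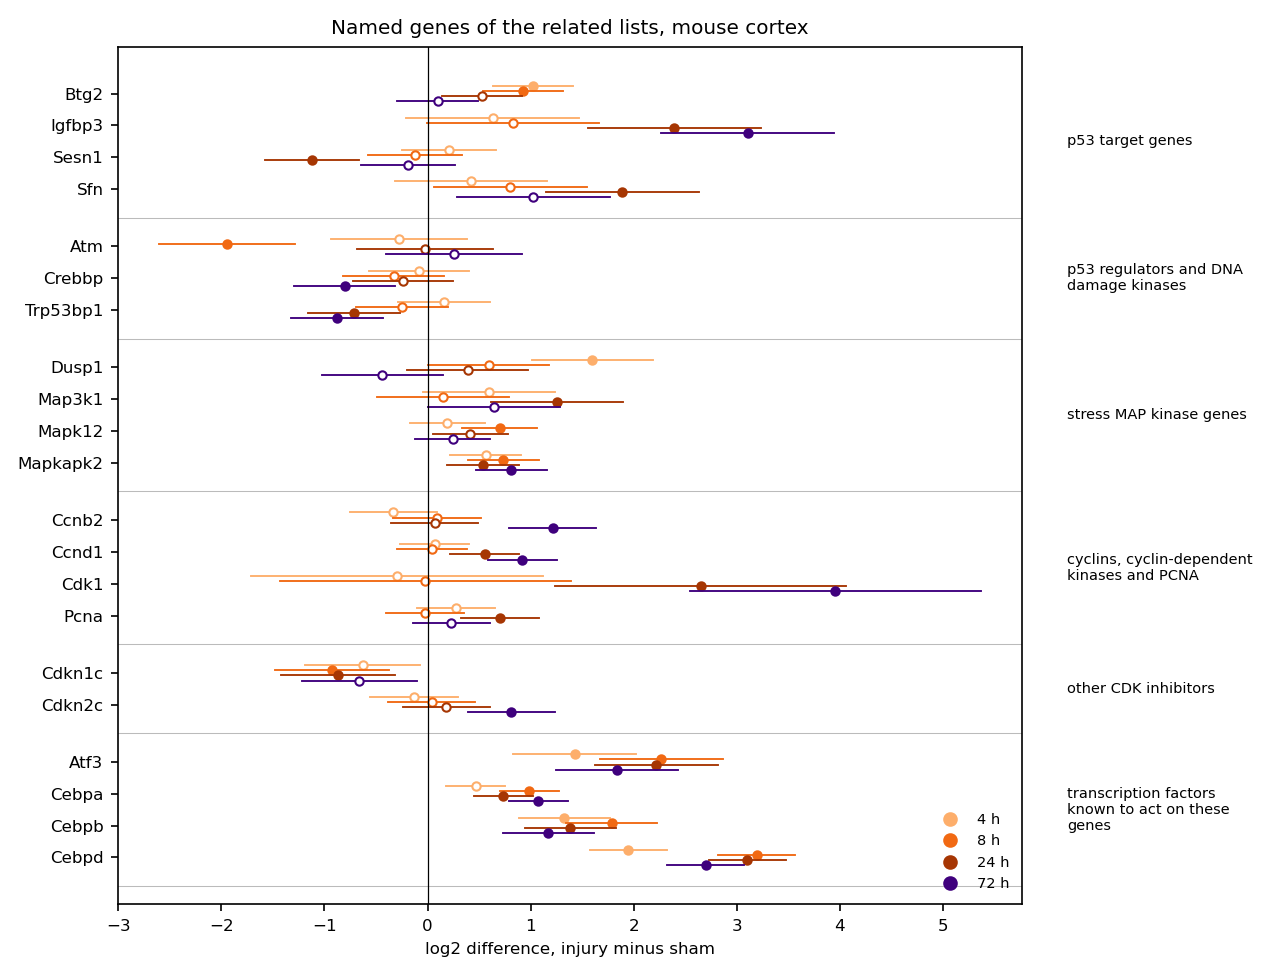
Log2 difference, injury minus time-matched sham, in mouse cortex for the named genes of the 6 related lists, by time (colour). Lines are 95% intervals from limma, filled points are called and open points are not. Cebpd, Cebpb and Atf3 are filled at all 4 times, and Cdk1 and Ccnd1 at 24 h and 72 h only.

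The last list held transcription factors known to act on the Gadd45 genes or Cdkn1a. Like the other lists, it was chosen with earlier results of these data known. Of 20 tested in mouse, 3 were higher and 1 lower at 4 h, 8 and 1 at 8 h, 6 and 0 at 24 h and 5 and 2 at 72 h. With an array left out, the count higher was 1 to 3 at 4 h, 6 to 8 at 8 h, 4 to 7 at 24 h and 5 to 6 at 72 h. Cebpd was higher at 4 h (1.95 ± 0.18, adjusted p = 7.12e-06), 8 h (3.19 ± 0.18, adjusted p = 1.24e-09), 24 h (3.10 ± 0.18, adjusted p = 2.10e-09) and 72 h (2.70 ± 0.18, adjusted p = 4.99e-09). Atf3, a stress-induced factor, was higher at all 4 times, by 1.43 ± 0.28 at 4 h (adjusted p = 0.0152) and 2.27 ± 0.28 at 8 h (adjusted p = 3.30e-05). In the sham 4 h arrays Atf3 read 626 to 731 and Cebpd 791 to 866, against 231 to 345 and 328 to 428 in the other sham arrays. Cebpb was higher by 1.33 ± 0.21 at 4 h (adjusted p = 0.00195) and 1.79 ± 0.21 at 8 h (adjusted p = 1.87e-05), and Cebpa by 0.99 ± 0.14 at 8 h (adjusted p = 0.000105).

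In rat, 5 of 18 of these transcription factors were higher at 4 h, against 2.93% of all genes called higher, and 0 at the other times. Nfkb1, a subunit of NF-kB, was higher by 2.96 ± 0.47 at 4 h (adjusted p = 0.000547), Atf3 by 1.79 ± 0.38 (adjusted p = 0.00734), Cebpb by 2.05 ± 0.44 (adjusted p = 0.00986) and Ddit3, also known as Gadd153 and not a Gadd45 gene, by 1.47 ± 0.43 (adjusted p = 0.0456). With an array left out this count was 1 to 6, and under the other alternatives it was 0 to 5. Of 9 stress MAP kinase genes only Dusp1 was called, at 4 h (2.66 ± 0.56, adjusted p = 0.00774, 4.99% of all genes called in either direction). With an array left out 0 to 3 were called higher and 0 to 2 lower at that time. Dusp1 read 1435 to 4284 after injury at 4 h and 70 to 952 in sham, with naive cortex at 984 to 1202. Nfkb1 read 1114 to 1943 and 68 to 572, with naive cortex at 510 to 652. The sham 4 h group holds replicates 3 and 4, which stand apart. Of 13 genes of the list with cyclins, cyclin-dependent kinases and PCNA, 2 were higher at 72 h (2.76% of all genes called in either direction). These were Cdk1 (3.35 ± 0.68, adjusted p = 0.00511) and Ccnd1 (1.45 ± 0.38, adjusted p = 0.0331), a count of 0 to 2 with an array left out. Cdk1 read 451 to 959 after injury at 72 h, against 29 to 104 in sham, where 1 of the 2 arrays was at the floor. None of the 5 p53 targets, 3 p53 regulators and 2 other CDK inhibitors measured in rat was called at any time in limma.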

How the data were processed

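The values are linear array intensities as deposited, 1 per probe set and array, with 12488 probe sets on the mouse arrays and 8799 on the rat arrays. The software behind the deposited intensities is not given in the sources used here. Groups came from the sample labels. P-values measure the spread between arrays, and the mouse sham arrays of a time share a title number. The titles do not say whether these sham arrays hold separate pools of animals. Their spread may therefore not be a spread between animals. Values under the 10th percentile of all arrays of a species (mouse 24.1, rat 32.3) were set to it before the log2 step. Control probe sets (66 and 59) were left out, and probe sets above the pooled 40th percentile (194 and 203) in at least 3 arrays were kept (8471 and 7158). The probe set with the highest mean stood for a gene. Each species had 1 limma fit (version 3.58.1, R 4.3.3, trend) with a mean per group (13 and 26 residual degrees of freedom), tested on simulated data. Symbols came from platform annotation, and a check of the rat gene IDs changed 0 of them. The members and lists were chosen with earlier results of these data known. Named genes were all members, the 5 genes with the highest correlation to each called member and up to 4 called genes per list and species with the smallest adjusted p. The sham 4 h, naive and 4-array comparisons were added after seeing the data.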

Additional observations from a re-analysis of the deposited data

Results flagged for a closer look

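In mouse, the injury effect differed between 8 h and 4 h by a direct test for Gadd45b (log2 difference of effects 2.21, adjusted p = 0.0147 in limma) and for Cdkn1a (1.69, adjusted p = 0.0147). Every injured array was above its sham arrays at both times for both genes, and the 4 h sham arrays were the highest sham arrays.

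In rat, the Gadd45a probe set L32591mRNA_at read 396 in injury 30 min replicate 5, against 137 to 184 in the other 4 arrays of that group, and its gap to the nearest array was 0.727 of the group's range on the log2 scale. This array is 1 of the 4 that stand apart. It was the 1 flagged of 27 combinations of a probe set and a group of 4 or 5 arrays (3.70%), and chance flags about 1 in 20. The combinations share arrays and genes, so they are not independent.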

How the results depend on the processing

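Of 157 counts of members recomputed under alternatives other than leaving out an array, 144 stayed within 1.5 times the reported count. Between 4 h and 8 h in mouse, 0 members were called in place of 2 with a gene's probe sets averaged, with all uninjured arrays as 1 control group and with sham arrays averaged. With all uninjured arrays as controls, 4 in place of 1 were called at 4 h in mouse, and 1 in place of 0 at 8, 24 and 72 h in rat. The rat 4 h call was lost with probe sets averaged, with only the compared groups, with the replicate block and without the 4 arrays that stand apart, and 1 member was called at 8 h with the replicate block (Gadd45a, adjusted p = 0.0479) and without those arrays. Of 15 same-numbered rat pairs, 4 correlated above 0.1 (range -0.410 to 0.359). The pairs at 30 min gave 0.358, 0.248, -0.410 and 0.359. These correlations cannot settle whether rat replicate numbers pair the samples. With an array left out, counts were 0 to 2 for mouse 8 h minus 4 h, 0 to 3 for 72 h minus 24 h and 0 to 2 for rat 4 h. The cause was not tested.

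Sign changes were nearly all among values called in neither fit. The exception was Gadd45b, mouse 8 h minus 4 h (2.21), at -0.60 with all uninjured arrays as controls. With those controls, mouse Mdm2 was 0.16 at 24 h and -0.15 at 72 h. Rat Cdkn1a was then 0.067 at 30 min, 0.20 at 4 h, -0.062 at 8 h, -0.43 at 72 h and -0.25 at 21 d, and rat Mdm2 0.40 at 30 min, -0.24 at 8 h and -0.33 at 24 h. With the title letter as a block, mouse Mdm2 was -0.089 at 8 h and -0.0082 at 72 h, and 4 h could not be fitted because injury and sham shared no letter. With probe sets averaged, rat Cdkn1a was 0.60 and Mdm2 0.045 at 4 h. With the replicate block, rat Mdm2 was -0.13 at 24 h. Without the 4 arrays, rat Mdm2 was 0.14 at 30 min and Cdkn1a 0.79 at 4 h. With an array left out, mouse Mdm2 ran from -0.20 to 0.67 at 8 h and -0.063 to 0.11 at 72 h. Rat Mdm2 ran from -0.64 to 0.55 at 30 min and -0.015 to 0.19 at 24 h. Rat Cdkn1a ran from -0.95 to 0.055 at 4 h, -0.12 to 0.77 at 8 h, -0.33 to 0.68 at 24 h and -0.12 to 0.41 at 21 d. Raising the floor to the 25th percentile, dropping the filter and quantile normalization changed no member count by over 1.5 times and turned no sign. The same held for tests per probe set when each gene was read from the probe set that stands for it. Other probe sets did differ in rat, as given above. Gadd45a L32591mRNA_at was called at 24 h where the gene was not, and Mdm2 rc_AI639488_at was called at 4 h with the opposite sign. Pathway list counts moved by over 1.5 times in 116 of 1068 recomputed values, and in 105 of 672 with an array left out.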
